A study of Mus musculus with 29 samples.

Results

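The RNA of 7 genes of cholesterol synthesis was followed in brain tissue and cells of mice in which the microRNA miR-99b-5p had been inhibited. They were chosen by symbol, with earlier results of these data known, and matched to their Ensembl identifiers in the count tables. All 7 were found among the 48709 listed genes, and all 7 passed the filter on low counts in every experiment. Of these, 5 code for enzymes, in pathway order Hmgcs1, Idi1, Fdft1, Sqle and Lss, and the other two, Srebf2 and Insig1, code for regulators, so that the set is not made of enzymes alone.

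The 29 libraries belong to 3 experiments, in each of which a locked nucleic acid (LNA) inhibitor of miR-99b-5p (anti-miR-99b) was compared with a scrambled negative control LNA (sc-control). The prefrontal cortex (PFC) came from male C57BL/6J mice of 3 months, with 3 mice per group and 1 library per mouse, which had received the LNA in lipid nanoparticles by injection into both sides, and tissue of one side was taken 5 days later. Primary microglia (4 libraries per group) were shaken off mixed glia of CD1 pups at postnatal day 1, grown with 10% serum and 20% medium conditioned by L929 cells, and treated for 2 days. In the co-culture, microglia treated in that way were moved onto cortical neurons of CD1 embryos at embryonic day 17.5. There were 7 libraries with anti-miR-99b and 8 with sc-control, and the RNA of the whole culture was isolated 48 hours later. The LNA was given to the microglia before transfer and not to the neurons, and all groups, the controls included, received an LNA. How much miR-99b-5p each library held was not analysed here. Nothing in the labels says that the libraries of a culture group came from separate cultures, so p-values there measure the spread between these libraries, which may be technical.

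Each library held between 21324156 and 37901110 reads counted on genes. Marker genes fixed for each cell type were compared between control groups, at the threshold given below. In control microglia 11 of 12 microglia markers were higher than in control PFC. Lower there were 12 of 12 neuron, 10 of 10 astrocyte, 10 of 12 oligodendrocyte and 5 of 5 blood markers. Endothelial and fibroblast markers were lower in 3 of 5 and 2 of 5 (0 higher). Of 4 markers of oligodendrocyte precursors, 2 were higher and 1 lower. The control co-culture also held RNA of astrocyte markers (4 of 10 lower than in PFC, 0 higher) and of precursor markers (2 of 4 higher, 1 lower). Of 12 neuron markers 4 were higher there than in PFC and 5 lower, and of 12 oligodendrocyte markers 1 was higher and 10 lower. Lower too were 9 of 12 microglia, 5 of 5 endothelial, 4 of 5 fibroblast and 5 of 5 blood markers. No pair of libraries within a group was as similar as counting error alone would make them (lowest chi-square per degree of freedom 1.48 over 67 pairs), so no library was counted as a copy. In the co-culture, replicate 7 of anti-miR-99b and replicate 6 of sc-control stood apart from the rest of their groups, with a median chi-square per degree of freedom to the other libraries of 6.75 against 2.84 to 5.23, and of 4.34 against 1.95 to 2.31. Results that rest on them are given with and without them.

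Cells build cholesterol from acetyl-CoA. Hmgcs1 makes HMG-CoA, from which mevalonate is formed; Idi1 interconverts the isoprenoid units made from it; Fdft1 (squalene synthase) joins farnesyl groups to squalene; Sqle (squalene epoxidase) oxidises squalene; and Lss (lanosterol synthase) closes the ring system. Srebf2 codes for SREBP-2, the transcription factor that drives these enzymes when sterols in the endoplasmic reticulum are low, and Insig1 codes for a protein that holds the SREBP escort Scap in the endoplasmic reticulum when sterols are high and is itself an SREBP target. Brain cholesterol is made locally because lipoproteins of the blood do not cross the blood-brain barrier, and in the adult brain glial cells supply much of it to neurons.

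In the genome build GRCm38, Hmgcs1 lies at chr13:119690379-119708260, Idi1 at chr13:8885501-8892451, Fdft1 at chr14:63145150-63179578, Sqle at chr15:59315077-59331192, Lss at chr10:76531588-76557138, Srebf2 at chr15:82147181-82205379 and Insig1 at chr5:28071363-28078662. Fdft1 is read from the minus strand and the others from the plus strand. Srebf2 carries the microRNA gene Mir33 inside its span without sharing exon bases with it. The strand setting of the counting is not given in the sources used here, and this touches Fdft1, which shares 774 exon bases with Ctsb on the opposite strand, and Lss, which shares 381 exon bases with the antisense gene 4930483K19Rik. That antisense gene had at most 12 counts in a library, while Ctsb, a cathepsin of lysosomes, reached 592864 counts in a microglia library, 29955 in a PFC library and 16476 in a co-culture library, so Fdft1 counts are uncertain and most of all in microglia. Reads of 50 bases could also fall on near copies, since 17.7% of the 50-base stretches of Idi1 transcripts occur in 4 other annotated genes, and 9.38% of those of Fdft1 occur in Gm6781, against at most 2.17% for the remaining 5 genes.

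The mature sequence of the inhibited microRNA (RefSeq, chr17:17830194-17830215, plus strand, GRCm38.p6) is shown because its seed, bases 2 to 8 in capitals, is the part by which a transcript would be recognised.
miR-99b-5p: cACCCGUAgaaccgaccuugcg
The reverse complement of that seed was present in none of the annotated transcripts of the 7 genes (0 of 4 for Hmgcs1, 0 of 4 for Sqle, 0 of 2 for Insig1, 0 of 4 for Fdft1, 0 of 8 for Lss, 0 of 5 for Idi1 and 0 of 7 for Srebf2). Over all 55450 annotated genes, 1.86% had a transcript with it. This says only that these 7 letters do not occur there.

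RefSeq held a promoter for 5 of the 7 genes, Hmgcs1, Idi1, Insig1, Lss and Srebf2. The stretches upstream of Hmgcs1 (chr13:119690101-119690350), Insig1 (chr5:28071162-28071362) and Lss (chr10:76531355-76531587), all on the plus strand of GRCm38.p6, are shown because these genes had the highest expression or the largest co-culture differences of the set. Capitals mark matches, on either strand, to the SREBP motif TCACNCCAC, the NF-Y motif CCAAT and the Sp1 motif GGGCGG, where N is any base. No match overlapped another.
Hmgcs1: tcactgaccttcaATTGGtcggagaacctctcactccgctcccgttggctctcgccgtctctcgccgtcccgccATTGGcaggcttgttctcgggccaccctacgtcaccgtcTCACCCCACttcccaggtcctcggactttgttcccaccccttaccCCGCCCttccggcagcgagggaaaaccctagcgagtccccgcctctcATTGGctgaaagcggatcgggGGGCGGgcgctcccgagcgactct
Insig1: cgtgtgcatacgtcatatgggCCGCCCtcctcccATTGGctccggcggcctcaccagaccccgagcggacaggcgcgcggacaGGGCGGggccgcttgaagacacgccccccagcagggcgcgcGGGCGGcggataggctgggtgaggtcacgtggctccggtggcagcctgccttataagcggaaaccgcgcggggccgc
Lss: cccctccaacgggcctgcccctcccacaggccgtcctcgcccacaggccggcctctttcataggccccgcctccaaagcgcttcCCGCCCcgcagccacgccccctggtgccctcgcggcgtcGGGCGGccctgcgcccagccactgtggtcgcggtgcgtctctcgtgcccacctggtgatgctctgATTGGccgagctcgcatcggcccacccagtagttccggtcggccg
In the full promoters of 300 bases, the SREBP motif was found once, in Hmgcs1 with its first base at -137 from the RefSeq start site, and so in 1 of the 5 genes, against 1.24% of all 32851 RefSeq promoters. The NF-Y motif was present in 5 of 5 (37.4% of all promoters) and the Sp1 motif in 5 of 5 (35.7% of all promoters). Hmgcs1 had 4 NF-Y matches and Idi1 had 2, while Insig1, Lss and Srebf2 had 1 each. Srebf2 had the most Sp1 matches, with 5. Among the 54 promoters found for 6 lists of sterol and lipid genes, the shares were 1.85%, 55.6% and 68.5%. A match is a string of letters and not a bound site.

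The first question was how high these genes stand in each experiment without inhibition. Levels of different genes are given per length, as RPKM (counts scaled to a common library total and divided by the length of annotated exons, computed here from the deposited counts), in the sc-control libraries. By this measure Hmgcs1 led in all 3 experiments and Idi1 was last in all 3. The co-culture was far above the PFC and the microglia for every enzyme.

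Hmgcs1 stood at 56.0, 58.3 and 59.1 RPKM in the 3 PFC libraries, at 40.8, 42.5, 44.3 and 44.5 RPKM in the 4 microglia libraries, and between 445 and 496 RPKM with a median of 468 in the 8 co-culture libraries. The 3 ranges did not overlap. Control co-culture was 8.10-fold above control PFC (log2 difference 3.02, SE 0.0455, adjusted p = 5.68e-27, edgeR quasi-likelihood test with Benjamini-Hochberg adjustment, as for every adjusted p of a control comparison) and control microglia were 10.9-fold below control co-culture.

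Sqle had 12.5 to 13.9 RPKM in PFC, 8.83 to 9.64 RPKM in microglia and 63.9 to 69.3 RPKM in co-culture. Fdft1 had 12.1 to 14.8, 5.70 to 5.88 and 48.6 to 52.9 RPKM. Lss had 3.46 to 4.03, 4.23 to 4.63 and 13.0 to 16.2 RPKM. For each of these 3 enzymes of the sterol branch the control libraries of one experiment were clear of those of the others, and the co-culture was the highest, 4.95-fold above PFC for Sqle, 3.70-fold for Fdft1 and 3.96-fold for Lss. The lowest place differed, since Sqle and Fdft1 were lowest in microglia and Lss was lowest in PFC.

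Idi1 was measured on few reads, with 34 to 61 counts in a PFC library, 37 to 68 in a microglia library and 182 to 308 in a co-culture library. Its level was 0.344 to 0.483 RPKM in control PFC, 0.492 to 0.736 RPKM in control microglia and 1.90 to 2.46 RPKM in control co-culture. The co-culture was again highest, 5.06-fold above PFC, and Hmgcs1 exceeded Idi1 by 138 times in PFC, 71.2 times in microglia and 221 times in co-culture. These ratios are of counted reads per length. Of the 50-base stretches of Idi1 transcripts 17.7% also occur in other genes, and copies were searched among annotated transcripts alone. The part of such copies in the low counts of Idi1 was not tested.

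The folds of the co-culture over the other experiments were smaller for the regulators than for the enzymes. Srebf2 had 35.02 to 40.4 RPKM in PFC, 23.2 to 25.1 RPKM in microglia and 54.9 to 58.9 RPKM in co-culture. Its co-culture level was 1.501-fold above PFC, which passed the test on p but not the fold threshold (log2 difference 0.59, SE 0.0391, adjusted p = 3.05e-13, edgeR). Insig1 had 12.8 to 15.2 RPKM in PFC, 12.7 to 14.0 RPKM in microglia and 36.1 to 41.2 RPKM in co-culture, so that PFC and microglia overlapped (log2 difference -0.12, adjusted p = 0.0594, edgeR) and the co-culture was 2.74-fold above PFC.

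**Figure D1:**
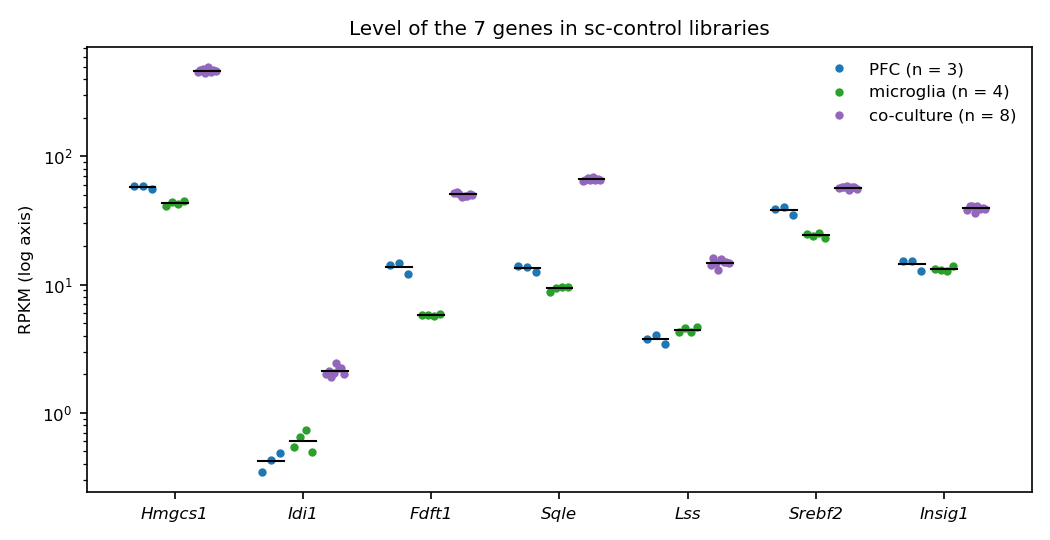
Level of the 7 genes in the sc-control libraries of PFC (n = 3), microglia (n = 4) and co-culture (n = 8), as RPKM on a log axis, with each point 1 library and each bar the mean of the group. The co-culture points are the highest for every gene, and Hmgcs1 is the highest and Idi1 the lowest of the genes in each experiment.

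Within PFC the order was Hmgcs1, Srebf2, Insig1, Fdft1, Sqle, Lss and Idi1, where Insig1, Fdft1 and Sqle could not be ordered because the ranges of neighbours overlapped. Within microglia the order was Hmgcs1, Srebf2, Insig1, Sqle, Fdft1, Lss and Idi1 with no overlap between neighbours. Within co-culture Sqle moved up to second place, above Srebf2, Fdft1, Insig1, Lss and Idi1, again with no overlap. Overlap refers to the libraries and not to the length, which joined all annotated exons (10787 bases for Lss, 3093 for Insig1). Which transcripts were present was not tested. Without division by length, scaled counts in control microglia averaged 47.7 for Lss, 40.9 for Insig1 and 24.6 for Fdft1. In control co-culture they averaged 410 for Srebf2 and 367 for Sqle, and in control PFC 274 for Srebf2 and 266 for Hmgcs1. The 3 orders therefore hold for this length measure. The 7 genes together took 0.0736% to 0.0828% of the counted reads in PFC libraries, 0.0481% to 0.0498% in microglia and 0.344% to 0.427% in co-culture.

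A gene was called between control groups at an adjusted p under 0.05 and a log2 difference beyond 1. Control co-culture was higher than control PFC in 6 of 7 genes, all but Srebf2, against 14.9% of all genes tested. Control microglia were lower than control co-culture in 7 of 7, against 35.2% of all genes, with folds of 10.9 for Hmgcs1, 8.69 for Fdft1, 7.06 for Sqle, 3.51 for Idi1, 3.35 for Lss, 2.97 for Insig1 and 2.36 for Srebf2. Control microglia were lower than control PFC in 1 of 7, Fdft1 (2.35-fold, log2 difference -1.23, SE 0.0553, adjusted p = 3e-17, edgeR), against 37% of all genes. Fdft1 is also the gene whose exons overlap Ctsb, and the part of that overlap in its low microglia count was not tested.

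The 3 control comparisons share their libraries. The experiments differ in tissue, strain, age, medium, serum and sequencing, and these cannot be told apart. In bulk RNA, fewer cells of a type and less RNA per cell cannot be told apart either.

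The rest of the pathway was described with lists of related genes chosen by function, with earlier results of these data known. In control co-culture against control PFC, 7 of 8 genes of the mevalonate list (acetyl-CoA to farnesyl pyrophosphate, with Hmgcs1 and Idi1 among them) and 9 of 13 of the sterol list (squalene to cholesterol, with Fdft1, Sqle and Lss among them) were higher. Of all genes tested 14.9% were higher. The median log2 differences were 2.29 and 1.67, beside -0.0047 over all genes. Mvd, the mevalonate diphosphate decarboxylase, was 5.59-fold higher and Fdps, the farnesyl pyrophosphate synthase, was 4.75-fold higher. Dhcr7, a reductase of the last steps, was 4.72-fold higher.

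Microglia showed another arrangement for uptake and efflux. Among the genes of uptake and intracellular handling, 7 of 10 were higher in control microglia than in control co-culture and 2 were lower. Of the genes of the liver X receptors and efflux 6 of 7 were higher. Over all genes 24.3% were higher and 35.2% lower. Apoe, the main lipid carrier of the brain, was 23.7-fold higher, the cholesterol exporter Abca1 was 3.55-fold higher, and Abcg1, an exporter too, was 5.70-fold higher. Abcg4, the remaining gene of the efflux list and also a sterol exporter, was 20.5-fold lower (named after its value was seen). In the same comparison 8 of 8 mevalonate genes and 11 of 13 sterol genes were lower in the microglia, against 35.2% of all genes. The other 2 sterol genes, Ebp (4.48-fold) and Lbr (2.65-fold), were higher there.

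The second question was whether inhibition of miR-99b-5p in microglia was followed by a difference in the co-cultures. A gene was called at an adjusted p under 0.05 and a log2FC (log2 fold change, anti-miR-99b minus sc-control) beyond 0.1. From here on levels are CPM (counts scaled to a common library total with TMM factors, not divided by length), which serve comparisons of 1 gene between libraries. Insig1 was the single member called, and it was higher with anti-miR-99b (1 of 7), where 0.846% of all 16193 genes tested were called higher. The log2FC of the 5 enzymes was above 0 too (differences of 4.22% to 12.7%), outside the threshold. At an unadjusted p under 0.05, 5 of 7 were higher (Hmgcs1, Sqle, Insig1, Fdft1 and Lss), where 6.4% of all genes were. A log2FC above 0 was found in 6 of 7 against 51.6% of all genes. The median log2FC of the 7 was 0.13, beside 0.00 over all genes. Because the 7 were chosen with earlier results of these data known, these shares describe them and do not test them.

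Insig1 ranged from 130 to 156 CPM with a median of 139 in the 7 anti-miR-99b libraries and from 117 to 132 CPM with a median of 126 in the 8 sc-control libraries. Of the anti-miR-99b libraries, 5 lay above the highest control and 7 above the control median, and the groups overlapped. The means were 139 ± 8.54 CPM (SD, n = 7) and 127 ± 5.22 CPM (SD, n = 8), and the log2FC was 0.14 (SE 0.0331, adjusted p = 0.0317, edgeR quasi-likelihood test), a rise of 10.1% with a 95% interval of 4.99% to 15.4%. With an exact permutation test (difference of means, unadjusted and two-sided) p was 0.00186, where 0.000311 is the smallest p that it can give.

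Hmgcs1 ranged from 2219 to 2819 CPM with a median of 2393 in anti-miR-99b libraries and from 2135 to 2368 CPM with a median of 2234 in sc-control libraries. The groups overlapped, with 4 of 7 anti-miR-99b libraries above the highest control. Its log2FC was 0.13 (SE 0.0345, adjusted p = 0.0613, edgeR), just outside the threshold, and the interval ran from 4.03% to 14.8%.

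Sqle ranged from 382 to 443 CPM with a median of 403 against 368 to 399 CPM with a median of 379. Here 5 of 7 anti-miR-99b libraries lay above the highest control, and the log2FC of 0.10 (SE 0.0256, adjusted p = 0.0612, edgeR) was just outside the threshold too. Lss ranged from 167 to 233 CPM with a median of 185 against 147 to 181 CPM with a median of 165, with a mean of 187 ± 21.9 CPM (SD, n = 7) with anti-miR-99b and a log2FC of 0.17 (SE 0.0519, adjusted p = 0.102, edgeR).

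Fdft1 and Idi1 gave smaller or less certain differences. Fdft1 ranged from 226 to 235 CPM with anti-miR-99b and from 215 to 232 CPM with sc-control, with all 7 anti-miR-99b libraries above the control median and a log2FC of 0.06 (SE 0.0209, adjusted p = 0.179, edgeR). Idi1 ranged from 7.16 to 9.83 CPM and from 6.91 to 8.95 CPM (log2FC 0.13, SE 0.0671, adjusted p = 0.435, edgeR), with a 95% interval of -0.831% to 20.2%.

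Srebf2, which codes for the factor that drives the other genes, had a log2FC below 0. It ranged from 391 to 462 CPM with a median of 424 in anti-miR-99b libraries and from 409 to 442 CPM with a median of 429 in sc-control libraries. The anti-miR-99b libraries spread both above and below the controls, and the log2FC was -0.03 (SE 0.0296, adjusted p = 0.759, edgeR) with a 95% interval of -5.96% to 2.35%.

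**Figure D2:**
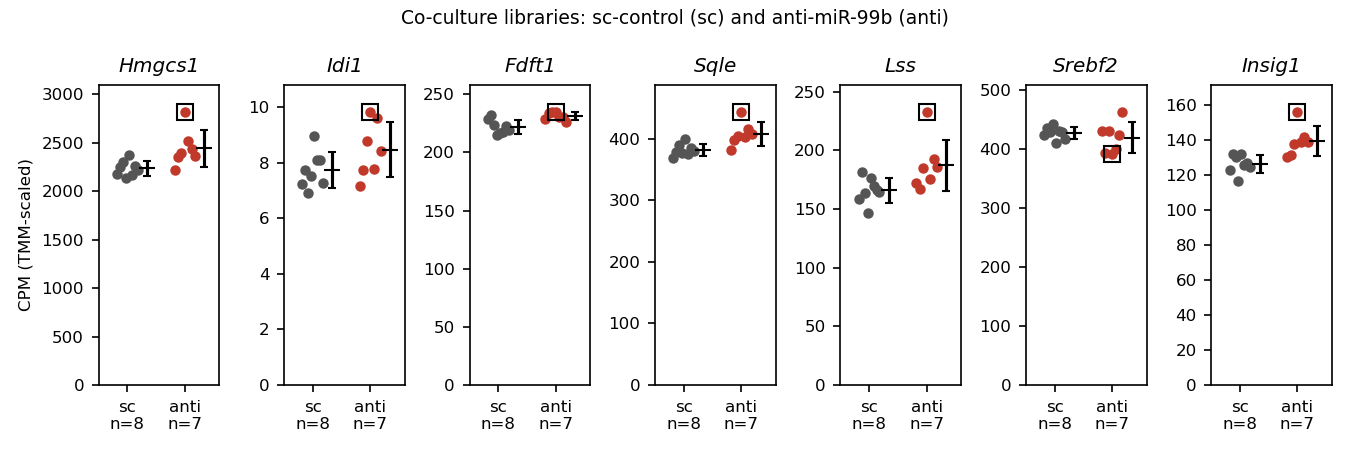
Level of each gene in the co-culture libraries as CPM, with 8 sc-control (sc, grey) and 7 anti-miR-99b (anti, red) libraries as points and the mean ± SD beside them, on axes that start at 0. The boxed point is anti-miR-99b replicate 7, which is the highest of the 15 libraries for 5 genes, is second for Fdft1 and is the lowest for Srebf2.

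A single library took a large part in the size of these differences. Anti-miR-99b replicate 7 was the highest of the 15 libraries for Hmgcs1, Sqle, Insig1, Lss and Idi1 and the lowest for Srebf2, while sc-control replicate 5 was the lowest for 4 genes. Without replicate 7 the log2FC of Lss was 0.12 in place of 0.17 and that of Insig1 was 0.11, and Insig1 was still called. Without it and sc-control replicate 6, which also stood apart, Insig1 (log2FC 0.12, adjusted p = 0.0174, edgeR) and Hmgcs1 (log2FC 0.10, adjusted p = 0.0148, edgeR) were called. Each of the 15 libraries was left out in turn, and Insig1 was called in 9 of the 15 fits. The call was lost without replicate 10 or 11 of the anti-miR-99b group and without replicate 1, 5, 8 or 12 of the controls, with adjusted p up to 0.0773 over all 15 fits.

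The libraries were spread over 4 sequencing lanes as read from their names. Within lanes the log2 ratio of the means of Insig1 was 0.04 in lane 4 (2 anti-miR-99b and 2 sc-control libraries), 0.12 in lane 5 (1 and 3), 0.31 in lane 6 (1 and 1, with replicate 7) and 0.15 in lane 7 (3 and 2). Insig1, Hmgcs1, Sqle and Fdft1 were higher with anti-miR-99b within each lane, whereas Lss was at 0.00 and Idi1 at -0.01 in lane 4. With the lane as a term in the fit, the log2FC of Insig1 was 0.14 with an adjusted p of 0.0544 (edgeR), so that 0 of 7 genes were called (DESeq2 without that term called 2, Hmgcs1 and Insig1).

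Some markers of microglia were higher with anti-miR-99b in the same libraries. Of 12 microglia markers 6 were called higher (Csf1r, Cx3cr1, C1qa, C1qb, C1qc and Tyrobp), where 0.846% of all genes were. The log2FC was above 0 in 11 of the 12 and below 0 in 1, Itgam (-0.24, adjusted p = 0.385, edgeR), while Ptprc was at 0.00014. The summed level of the 12 was 184 to 214 CPM with anti-miR-99b and 152 to 191 CPM with sc-control. None of the 12 neuron markers and none of the 9 astrocyte markers tested passed the threshold (summed astrocyte level 2567 to 2734 CPM and 2583 to 2781 CPM). All 7 genes were lower in control microglia than in control co-culture, by the folds given above. The part of the microglia markers in the values above was not tested.

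In the PFC a gene was called at an adjusted p under 0.1 and a log2FC beyond 0.2. None of the 7 was called by edgeR or by DESeq2, where 0.0864% of all 17364 genes tested were called in either direction, and 1 of 7, Lss, had an unadjusted p under 0.05 with a higher level (5.17% of all genes). The log2FC was above 0 in 5 of 7 (50.6% of all genes), and the median was 0.01.

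Lss had 46.6, 47.99 and 50.8 CPM in the mice with anti-miR-99b and 39.2, 42.1 and 45.5 CPM in those with sc-control. The groups did not overlap, which held for 1 of the 7 genes in the higher direction and for 7.52% of all genes. The log2FC was 0.20 (SE 0.0773, adjusted p = 0.648, edgeR), and the exact permutation p was 0.1, the smallest that 3 mice against 3 allow. In lane 6, with 2 mice per group, the log2 ratio was 0.11, and in lane 7, with 1 per group, it was 0.38.

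Hmgcs1 had 257, 259 and 278 CPM with anti-miR-99b against 270, 279 and 285 CPM with sc-control in the PFC. The groups overlapped, and the log2FC was -0.07 (SE 0.0647, adjusted p = 0.776, edgeR), with an interval of -13.9% to 5.19%. Insig1 had 45.4, 45.5 and 50.8 CPM against 41.4, 49.0 and 49.2 CPM, and its log2FC was 0.02 with an interval of -11.2% to 16.2%. For Sqle the interval ran from -13.3% to 9.68%, for Fdft1 from -11.5% to 15.1%, for Srebf2 from -12.2% to 14.1% and for Idi1 from -27% to 43.4%. The intervals of Insig1 and Sqle in the PFC therefore include differences of the size seen in the co-culture. That of Hmgcs1, which ended at 5.19%, did not include its co-culture difference, and the direct test between experiments is given below.

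Among the 12 microglia markers in the PFC, 11 were higher with anti-miR-99b and 0 were called, with a summed level of 727 to 793 CPM against 549 to 745 CPM, and the part of this in the values above was not tested.

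In microglia treated directly, a gene was called at an adjusted p under 0.1 and a log2FC beyond 0.1. None of the 7 was called by edgeR or DESeq2, where 0.488% of all 14953 genes tested were called in either direction, and none had an unadjusted p under 0.05, where 3.4% of all genes did with a higher level. The log2FC was above 0 in 4 of 7 (51.6% of all genes).

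The replicates were close here, so the intervals were narrow. Hmgcs1 had 172, 180, 180 and 180 CPM with anti-miR-99b and 172, 175, 180 and 184 CPM with sc-control, a log2FC of -0.0018 with an interval of -4.25% to 4.17%. Insig1 had 36.9, 37.0, 37.5 and 37.8 CPM against 35.3, 36.5, 37.4 and 38.2 CPM, with an interval of -4.32% to 6.92%. Lss was between 41.95 and 43.99 CPM against 41.02 to 44.5 CPM, with an interval of -5.42% to 5.53%. None of these intervals reached the co-culture difference of its gene, which has an interval of its own, and the direct test is given below.

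Srebf2 came nearest to a difference in the microglia, with 159, 165, 165 and 166 CPM against 147, 155, 162 and 163 CPM. Of the anti-miR-99b libraries, 3 lay above the highest control, and the log2FC was 0.06 (SE 0.0322, adjusted p = 0.792, edgeR). Fdft1 had a log2FC of 0.06 and Sqle of 0.04, both with overlapping groups. Idi1 had the largest log2FC, -0.20, on 37 to 68 counts per library (SE 0.162, adjusted p = 0.903, edgeR).

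**Figure D3:**
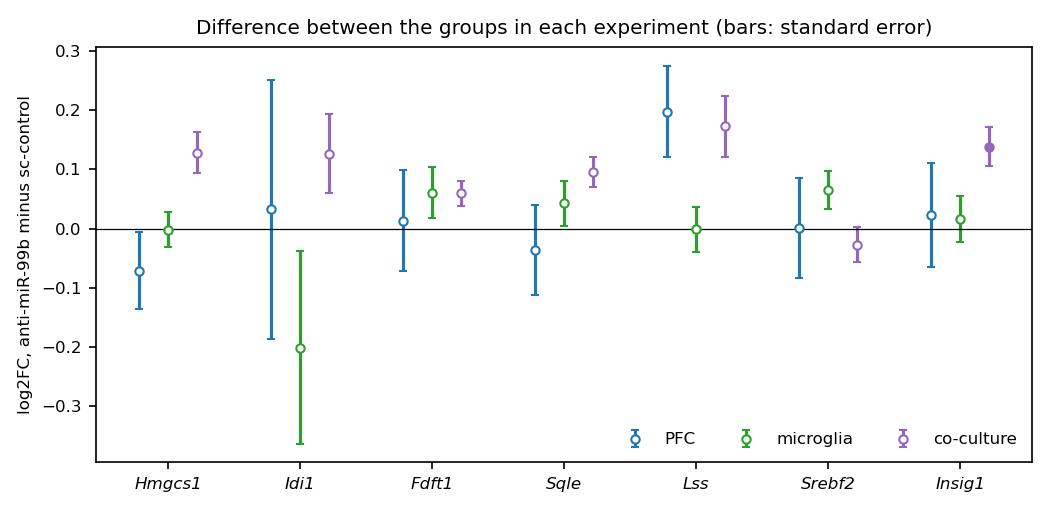
Log2FC (anti-miR-99b minus sc-control) of each gene in PFC (3 and 3 libraries), microglia (4 and 4) and co-culture (7 and 8), with bars for the standard error and a filled point where the gene was called. The filled point is Insig1 in the co-culture at 0.14, and 6 of 7 co-culture points are above 0.

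Whether the treatment effect differed between experiments was tested directly, in a fit over all 29 libraries. No member passed an adjusted p under 0.05 by edgeR for co-culture against PFC, where 0.791% of all genes did, for co-culture against microglia (0.0844% of all genes) or for microglia against PFC (0.469% of all genes). Hmgcs1 had the lowest p among the 7, with a log2FC 0.19 higher in the co-culture than in the PFC (SE 0.0682, unadjusted p = 0.00714, adjusted p = 0.158, edgeR). By DESeq2 its adjusted p was 0.0514. The difference for Insig1 was 0.11 (SE 0.0744, adjusted p = 0.505, edgeR) against PFC and 0.10 (SE 0.0687, adjusted p = 0.942, edgeR) against microglia. It has therefore not been shown that the rise of Insig1 in the co-culture differs from the effect in the other experiments.

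Enzymes beyond the 7 were then set beside them. In the co-culture all 8 genes of the mevalonate list had a log2FC above 0 (median 0.13), and 3 were called, Acat2, Pmvk and Mvd. Acat2, the thiolase of the first step, ranged from 194 to 213 CPM with anti-miR-99b and from 174 to 194 CPM with sc-control (log2FC 0.13, adjusted p = 0.00596, edgeR). Pmvk, the phosphomevalonate kinase, had a log2FC of 0.16 (adjusted p = 0.0259, edgeR), and Mvd one of 0.14 (adjusted p = 0.0357, edgeR).

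All 13 genes of the sterol list had a log2FC above 0 as well (median 0.11), and 2 were called, the sterol reductase Tm7sf2 (log2FC 0.13, adjusted p = 0.011, edgeR) and the sterol dehydrogenase Nsdhl (log2FC 0.11, adjusted p = 0.0456, edgeR). Msmo1, a methylsterol oxidase, had a log2FC of 0.13 (adjusted p = 0.0971, edgeR), Cyp51, the lanosterol demethylase, one of 0.11 and Fdps one of 0.13, all outside the threshold. Dhcr7 was near 0 with a log2FC of 0.03. Together, 21 enzymes were measured from acetyl-CoA to cholesterol, of which 5 were called higher, where 0.846% of all genes were. DESeq2 called 6 of the 21, adding Hmgcs1, and the lane term left 2, Acat2 and Tm7sf2. The count was 8 with no filter on low counts, 10 with an RUVs factor of unwanted variation (by edgeR and by DESeq2), 11 with an RUVr factor and 1, Mvd, with the replicate block. Over all genes, 137 were called higher in the main fit and 158 with DESeq2. The lane term gave 85, no filter 191 and the replicate block 70. The RUVs factor gave 284 by edgeR and 220 by DESeq2, and the RUVr factor gave 301. Without anti-miR-99b replicate 7 the count of enzymes was 4, and without both libraries that stood apart it was 5. With each library left out in turn it ran from 2 (without anti-miR-99b replicate 5 or 11, or sc-control replicate 4, 5, 8 or 12) through 3 (without sc-control replicate 1) to 8 (without anti-miR-99b replicate 2), and Acat2 and Tm7sf2 were called in 15 of the 15 fits, Pmvk in 8, Mvd in 7 and Nsdhl in 3. All 21 had a log2FC above 0, and none was called lower. These counts are a description too, since the lists were chosen with earlier results of these data known.

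**Figure D4:**
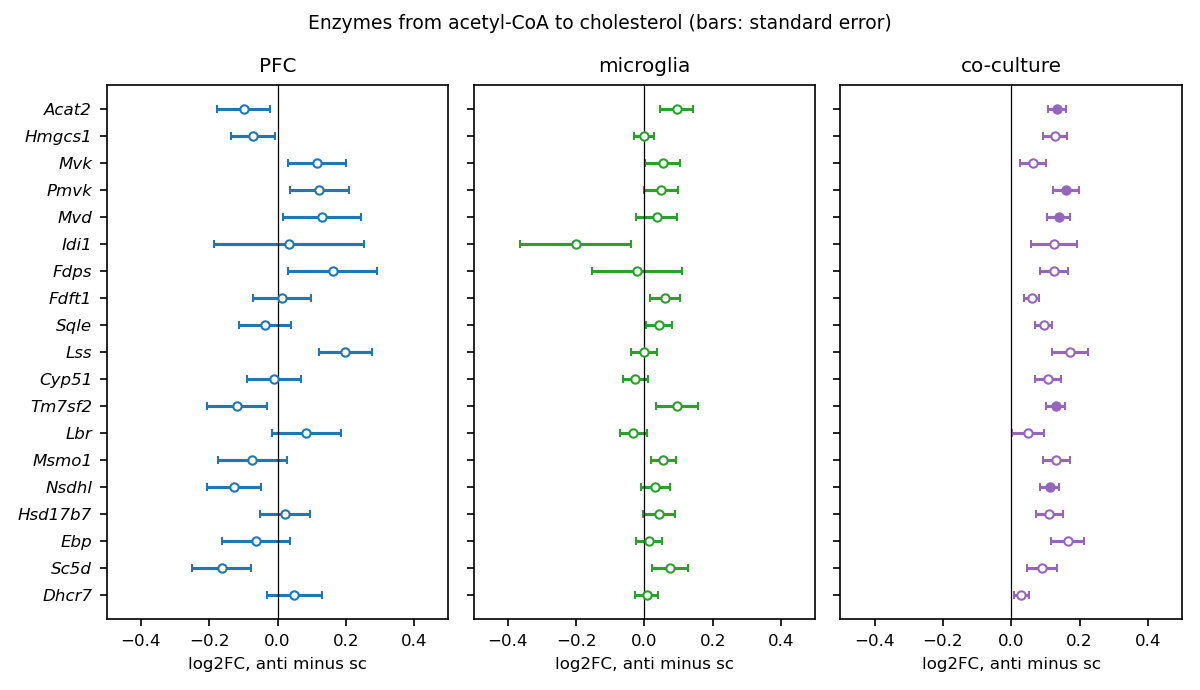
Log2FC of 19 enzymes of the mevalonate and sterol lists in pathway order, with bars for the standard error and filled points where the gene was called, in PFC, microglia and co-culture. In the co-culture all 19 points are above 0 and 5 are filled (Acat2, Pmvk, Mvd, Tm7sf2 and Nsdhl), while PFC and microglia have points on both sides and none filled.

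Of the 7 genes of the SREBP machinery, 2 had a log2FC above 0 in the co-culture, Insig1 and Insig2 (0.04), and 5 had one below 0, among them Srebf1 (-0.04) and the escort protein gene Scap (-0.03), for a median of -0.03. Among the 9 genes tested of uptake and handling 0 were called, and among the 7 of the liver X receptors and efflux 0 were called. Of these, Abca1 had a log2FC of -0.09 (adjusted p = 0.0933, edgeR) with all 7 anti-miR-99b libraries below the control median, Abcg1 one of 0.01, Apoe one of -0.0027 and the cholesterol hydroxylase gene Ch25h one of 0.23 (adjusted p = 0.475, edgeR). Of 10 genes of fatty acid synthesis, 1 was called, the acetyl-CoA synthetase gene Acss2, with 56.1 to 84.3 CPM against 43.1 to 62.6 CPM (log2FC 0.28, adjusted p = 0.0369, edgeR). Acss2 was not called by DESeq2, with the lane term or with the replicate block, and it was called in 6 of the 15 fits with 1 library left out (those without anti-miR-99b replicate 2, 3, 7 or 12 or sc-control replicate 2 or 6).

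In PFC and microglia none of these lists had a called gene by edgeR or DESeq2. At an unadjusted p under 0.05 (edgeR), 4 of the 55 genes of the 6 lists were higher (among them Lss, Nr1h2 and Apoe) and 1, Elovl6, was lower in the PFC, and 5 were higher (among them Acly, Fasn and Fads2) and 0 lower in the microglia, beside 22 higher and 3 lower of 54 tested in the co-culture. Over all genes 5.17% were higher and 2.47% lower at that p in the PFC, 3.4% and 3.04% in the microglia, and 6.4% and 6.81% in the co-culture, and the lists had 7.27% and 1.82%, 9.09% and 0%, and 40.7% and 5.56%. Since the lists were chosen with earlier results of these data known, these shares are a description without a test. In the PFC, 5 of 8 mevalonate genes and 5 of 13 sterol genes had a log2FC above 0, and in the microglia 4 of 8 and 10 of 13. Apoe had a log2FC of 0.23 in the PFC, with an adjusted p of 0.648 (edgeR). Cyp51, Msmo1, Fdps, Mvd, Dhcr7, Scap, Srebf1, Insig2, Abca1, Abcg1 and Ch25h had adjusted p of at least 0.66 in both experiments.

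Across the 15 co-culture libraries the members themselves varied together to different degrees. With the mean z-score of the 7 as the measure, Pearson's r over 15 libraries was 0.97 for Insig1, 0.95 for Lss, 0.93 for Sqle, 0.89 for Hmgcs1, 0.81 for Idi1, 0.65 for Fdft1 and -0.25 for Srebf2. Each gene is a part of the mean it is compared with, and the libraries hold both treatment groups, so these values are a description without a test. Without anti-miR-99b replicate 7, r was 0.96 for Insig1, 0.93 for Lss, 0.89 for Sqle, 0.83 for Hmgcs1, 0.74 for Idi1, 0.59 for Fdft1 and 0.055 for Srebf2, so that the negative value of Srebf2 rested on that library. Among 11508 genes with a mean of 5 CPM or more and outside the lists, the 5 with the highest r were Egln3 (0.95), Bnip3 (0.93), Rdh11 (0.92), Atf4 (0.92) and Fam162a (0.92). Without anti-miR-99b replicate 7 their r was 0.95, 0.89, 0.88, 0.84 and 0.87. Bnip3 ranged from 18.6 to 47.0 CPM over the 15 libraries and Egln3 from 10.4 to 19.7 CPM.

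Across the 15 control libraries, which form 3 separate clusters by experiment so that r only ranks genes by the order of these clusters, the 5 genes outside the lists most like the mean of the 7 were Plppr1, St8sia2, Tuba1a, Slc29a4 and Dhx57, with r of 0.998 or above. Plppr1 ran from 2.10 to 52.3 CPM and Tuba1a from 142 to 2451 CPM.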

How the data were processed

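RNA-seq libraries of mouse PFC, primary microglia and neuron-microglia co-cultures were made with a TruSeq polyA kit and read as single reads of 50 bases. The submitters' processing notes name bcl2fastq 2.20.2, FastQC 0.11.5, STAR 2.5.2b, featureCounts 1.5.1 and mm10; the annotation release and the strand setting are not given in the sources used here. The authors deposited raw counts per gene without normalization, 48709 identifiers per table, of which 48349 had a symbol in GENCODE M21. Every column was matched to a sample by its library name (0 left over), and replicate numbers and lanes come from these names.

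Each experiment was fitted alone with edgeR 4.0.16 in R 4.3.3 (filterByExpr, TMM factors, quasi-likelihood test, Benjamini-Hochberg over all genes tested: 17364 in PFC, 14953 in microglia, 16193 in co-culture), without covariates. Control groups were compared in 1 fit over the 15 control libraries (18274 genes) and treatment effects in 1 fit over all 29 (18963 genes). Thresholds in PFC and co-culture follow the results text of the study, and those in microglia were set here. For the PFC a figure legend of the study gives a stricter threshold, which was not used. The code was tested on simulated data. DESeq2 1.42.0, other factors and filters, a factor of unwanted variation, lane and replicate blocks, and left-out libraries were tried. Counts of 21324156 to 37901110 per library limit Idi1 in particular. Intervals cover the spread between libraries.

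The genes named were the 7 members, genes set by name from the lists (Fdps, Mvd, Cyp51, Msmo1, Dhcr7, Scap, Insig2, Srebf1, Ch25h, Abca1, Abcg1 and Apoe), other list genes where called, overlapping genes and the 5 genes most alike by correlation; some list genes enter the counts and are not reported by name here. The members and lists were chosen with earlier results of these data known. Shared numbers did not pair libraries.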

Additional observations from a re-analysis of the deposited data

Results flagged for a closer look

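Of 28 sets of 4 to 10 values of a member in a group, 3 held a library whose gap to the nearest of the others exceeded Dixon's limit for the group's range, where chance gives about 1 in 20. In microglia with anti-miR-99b, Hmgcs1 in replicate 1 stood at 171.664 CPM, below the other three, which ran from 179.610 to 179.831 CPM (gap 0.973 of the range). In the same group, Srebf2 in replicate 3 stood at 158.994 CPM, below the others at 165.002 to 165.752 CPM (gap 0.889 of the range). In the co-culture, Lss in anti-miR-99b replicate 7 stood at 232.777 CPM, above the others at 167.264 to 192.779 CPM (gap 0.611 of the range).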

How the results depend on the processing

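The counts of members called between control groups (1, 6 and 7) and their 420 member values kept their side of the threshold under every alternative tried. No member was called in PFC or microglia under any alternative. In the co-culture the count of 1 became 2 with DESeq2 and without both libraries that stood apart (chosen after seeing the data), 3 with upper-quartile factors, with no filter and with a factor of unwanted variation (RUVs, RUVr and DESeq2 with RUVs), and 0 with the lane block. The replicate block, over the 8 libraries with a shared number, called 0 (Insig1 0.13, adjusted p = 0.11, edgeR), and so did the same libraries with no block (0.13, adjusted p = 0.061, edgeR; added after seeing the data); numbers did not pair libraries (correlations of -0.28 to 0.05), and a crossed pairing in PFC, also added later, called 0. Leaving out 1 library gave 0 to 3 members. For treatment effects between co-culture and PFC, 1 member (Hmgcs1, adjusted p = 0.0195, edgeR) passed with no filter, and 0 to 2 with 1 library left out, 2 without PFC anti-miR-99b replicate 3.

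Calls over all genes went from 15 to between 1 and 1006 in PFC, from 73 to between 2 and 409 in microglia and from 227 to between 93 and 538 in co-culture. Of 462 member log2FC, 400 kept direction and side, 17 passed and 9 failed the threshold only then, and 36 changed sign, none of them past the threshold; the cause was not tested. In PFC, Srebf2 was -0.0041 with DESeq2 and with RLE factors, -0.017 with no filter, -0.037 with RUVs, -0.0014 with RUVr, -0.041 with DESeq2 and RUVs, and -0.13 with the replicate block and its libraries; Fdft1 was -0.0044, -0.012, -0.017 and -0.099 with no filter, RUVs, DESeq2 with RUVs, and the block or its libraries; Insig1 was -0.028 with the block and -0.025 with its libraries; Sqle was 0.00095 with upper-quartile factors. In microglia with no filter, Hmgcs1 was 0.0026 and Lss 0.0028. In co-culture, Srebf2 was 0.022 with the block and 0.023 with its libraries. With 1 library left out, PFC values ran from -0.069 to 0.074 (Fdft1), -0.16 to 0.15 (Idi1), -0.056 to 0.066 (Insig1) and -0.073 to 0.051 (Srebf2), and microglia values from -0.017 to 0.012 (Hmgcs1), -0.0051 to 0.037 (Insig1) and -0.024 to 0.014 (Lss). Scaling moved the median of all genes between control groups by at most 0.20 (library size alone, microglia against co-culture).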
